A study of Mus musculus with 12 samples.

Results

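Chromobox genes encode proteins that read methylated histone H3 through a chromodomain. The Polycomb chromobox proteins Cbx2, Cbx6, Cbx7 and Cbx8 belong to Polycomb repressive complex 1 (PRC1), which keeps developmental genes silent by binding H3K27me3 and ubiquitinating histone H2A, and they occupy the same place in that complex one at a time. The heterochromatin proteins Cbx1 (HP1 beta), Cbx3 (HP1 gamma) and Cbx5 (HP1 alpha) bind H3K9me3 instead. In the mouse, loss of Cbx2 turns XY gonads away from testis formation, so the family raises the question of whether the knocked-out gene still gives a signal and whether its relatives change level.

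The 7 genes were represented by the 20 probe sets that the platform annotation assigned to one of them alone, out of 45101 probe sets on the array. Cbx1 and Cbx5 had 5 probe sets each, Cbx7 had 3, Cbx2, Cbx6 and Cbx8 had 2 each, and Cbx3 had 1. Each probe set was kept apart, since its level depends on its own probes and cannot be set against that of another.

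RNA came from mouse gonads at E11.5, captured by laser from frozen 30 µm sections where GATA4 staining and tissue form marked the gonad, with cells of 2 or 3 individuals pooled per array. The 4 groups of 3 arrays were XX embryos labelled Cbx2 KO, XY embryos labelled Cbx2 KO, XX wild type (WT) and XY wild type, all from crosses of Cbx2 KO heterozygotes. The labels give neither the strain nor which exons of Cbx2 the KO allele is missing. The source names of the WT arrays carry the KO XX group, against their titles and genotype fields, so KO and WT below mean the genotype given by title and genotype field.

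The labels of sex held in all 12 arrays. The Y-linked gene Eif2s3y lay between 9.357 and 10.131 in XY arrays and between 3.122 and 3.731 in XX arrays (log2), and Xist, the RNA of the inactive X chromosome, between 5.81 and 6.088 in XY arrays and between 12.554 and 12.884 in XX arrays. Of 6 gonad markers, Wt1 lay between 10.834 and 11.239 in every array and Emx2 gave no call, while in the average over sexes Gata4, which guided the capture, fell by 1.45 in KO, Nr5a1 by 2.19 and Lhx9 by 1.08, and Tcf21 rose by 0.76. One array, WT XX replicate 1, correlated less with its own group (mean r = 0.9878 over probe sets) than with the WT XY arrays (mean r = 0.9945).

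Cbx6 and Cbx7 are near neighbours on chromosome 15, with 1 protein-coding gene, Apobec3, between them in the RefSeq gene table used here, and no protein-coding gene of that table starts between Cbx2 and Cbx8 on chromosome 11. RefSeq start windows (GRCm38.p6, 300 bases around the annotated start) matched 6 of the 7 genes, all but Cbx2. The windows of Cbx6, which rose in KO arrays, of its neighbour Cbx7, which gave no call, and of the HP1 gene Cbx1 are printed to compare their letters. Capitals mark the E-box CACGTG, the GC box GGGCGG and the CCAAT box CCAAT, each searched on both strands (CCGCCC and ATTGG on the other).
Cbx6 (chr15:79834284-79834583, minus strand): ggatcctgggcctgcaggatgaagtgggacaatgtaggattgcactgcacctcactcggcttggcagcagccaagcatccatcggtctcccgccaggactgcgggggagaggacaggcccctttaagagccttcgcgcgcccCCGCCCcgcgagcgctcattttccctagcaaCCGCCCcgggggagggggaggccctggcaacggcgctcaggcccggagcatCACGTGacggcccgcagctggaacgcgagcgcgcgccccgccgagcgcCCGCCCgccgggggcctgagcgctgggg
Cbx7 (chr15:79932597-79932896, minus strand): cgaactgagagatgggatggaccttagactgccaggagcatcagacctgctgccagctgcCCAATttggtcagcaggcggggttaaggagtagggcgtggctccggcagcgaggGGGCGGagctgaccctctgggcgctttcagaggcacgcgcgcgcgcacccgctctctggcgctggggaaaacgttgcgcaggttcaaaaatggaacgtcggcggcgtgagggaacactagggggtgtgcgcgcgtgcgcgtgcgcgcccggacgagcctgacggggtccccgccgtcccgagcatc
Cbx1 (chr11:96788885-96789184, plus strand): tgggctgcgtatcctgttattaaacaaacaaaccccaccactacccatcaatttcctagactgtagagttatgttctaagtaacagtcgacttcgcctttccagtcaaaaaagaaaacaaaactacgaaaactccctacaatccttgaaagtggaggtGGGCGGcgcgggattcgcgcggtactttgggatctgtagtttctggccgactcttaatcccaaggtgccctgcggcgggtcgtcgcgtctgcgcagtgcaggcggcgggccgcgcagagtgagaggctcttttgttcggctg
The Cbx6 window held 3 GC boxes, 1 E-box and 31 CpG dinucleotides. That of Cbx7 held 1 GC box, 1 CCAAT box and 33 CpG, and that of Cbx1 held 1 GC box and 22 CpG. Among 32851 such windows 35.7% held a GC box, 37.4% a CCAAT box and 7.15% an E-box, and the median window had 7 CpG. These matches are a description of letters and not of bound sites.

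Cbx2 itself was read by 2 probe sets. The brighter one, 1434116_at, had values of 9.432, 9.333 and 9.576 in the XY arrays labelled KO, against 8.926, 9.04 and 8.808 in WT XY arrays (log2). In XX it gave 9.282, 9.274 and 9.476 in arrays labelled KO, against 8.768, 8.462 and 8.57 in WT XX arrays. All 6 arrays labelled KO therefore lay above all 6 labelled WT.

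The brighter Cbx2 probe set was 1.44-fold higher in KO than in WT in XY gonads (95% interval 1.20 to 1.71, log2 fold change 0.52 ± 0.12 SE, adjusted p = 0.0130 by limma). In XX gonads it was 1.67-fold higher in KO (1.4 to 2.0, log2 fold change 0.74 ± 0.12, adjusted p = 0.00116). Averaged over both sexes the log2 fold change was 0.63 ± 0.08 (adjusted p = 0.000109), and it passed in each of the 22 alternative settings run for it. The difference between the KO effects in XY and XX was -0.22 on the log2 scale (interval -0.58 to 0.14, adjusted p = 0.803). The call in XY ended without KO XY replicate 3 (adjusted p = 0.0652) and without WT XY replicate 3 (adjusted p = 0.0680), where the log2 fold changes were 0.458 and 0.463.

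The dimmer Cbx2 probe set, 1422059_at, had values of 4.003, 4.057 and 3.877 in KO XY and of 4.08, 3.777 and 3.749 in WT XY. In XX its values were 4.146, 3.971 and 4.036 in KO and 4.11, 4.006 and 4.159 in WT. KO and WT arrays overlapped in both sexes, and the 12 values spanned only 3.749 to 4.159 on an array scale that began at 2.374. The log2 fold changes were 0.11 ± 0.12 in XY (adjusted p = 0.679) and -0.04 ± 0.12 in XX (adjusted p = 0.876). Values this near the low end of the array scale leave little room to show a loss. Nothing in the labels or annotation places the probes relative to the deleted stretch. The values therefore check the genotype in neither direction, and each KO direction below rests on the labels.

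**Figure D1:**
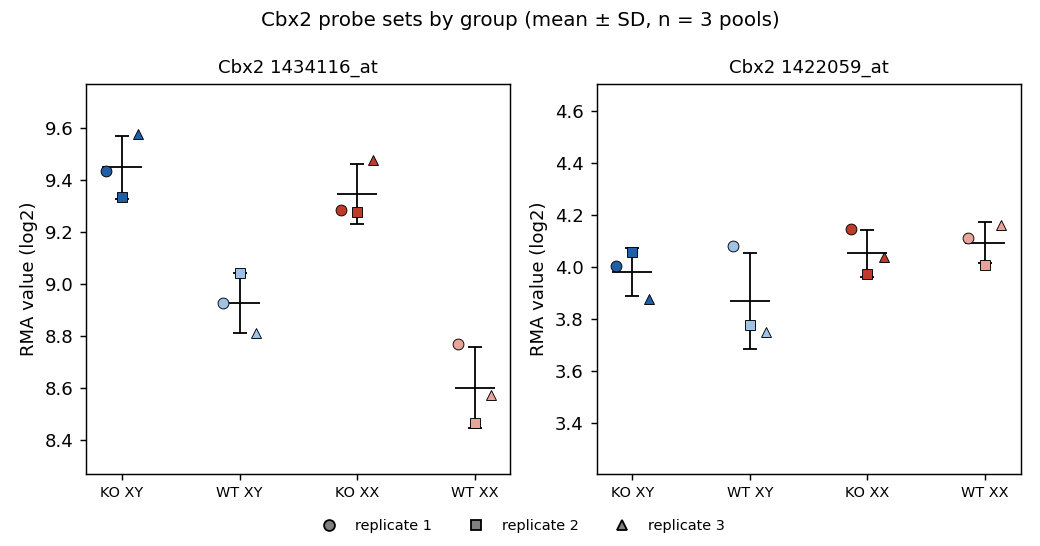
Log2 RMA values of the brighter (left) and dimmer (right) Cbx2 probe set in the 4 groups. Points are pools, marked by replicate number, and bars are group mean ± SD (n = 3). In the left panel all KO arrays lie above all WT arrays, between 9.274 and 9.576 in KO and between 8.462 and 9.04 in WT, while in the right panel the groups overlap.

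Between the sexes Cbx2 gave no call. Within WT, the brighter probe set averaged 8.925 ± 0.116 in XY and 8.6 ± 0.155 in XX (SD, n = 3), with every XY array above every XX array. The XY minus XX difference of 0.32 ± 0.12 did not pass (adjusted p = 0.543, interval 0.07 to 0.58). Within KO it averaged 9.447 ± 0.122 in XY and 9.344 ± 0.114 in XX, with overlapping arrays and a difference of 0.10 ± 0.12 (adjusted p = 0.769).

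Across the 20 chromobox probe sets, 3 rose and none fell in KO against WT in XY gonads, where 8.89% of the 45037 probe sets tested were called (4.24% higher and 4.65% lower). In XX gonads 2 rose and none fell, against 9.35% called in all (5.77% higher and 3.58% lower). Averaged over both sexes, 5 rose and 1 fell, against 17.6% in all (9.84% higher and 7.73% lower). The called probe sets belonged to Cbx2 and Cbx6 within each sex, and to Cbx1, Cbx2, Cbx5 and Cbx6 in the average. The median log2 fold change of the 20 was 0.082 in XY, 0.074 in XX and 0.052 in the average, beside 0.01, -0.025 and -0.012 over all probe sets. In XY the groups did not overlap for 6 probe sets with KO higher and 1 with KO lower, beside 15.6% and 15.1% of all, and in XX for 3 and 2, beside 12.1% and 11.6%. Probe sets of one gene share its RNA, so they are not independent cases.

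**Figure D2:**
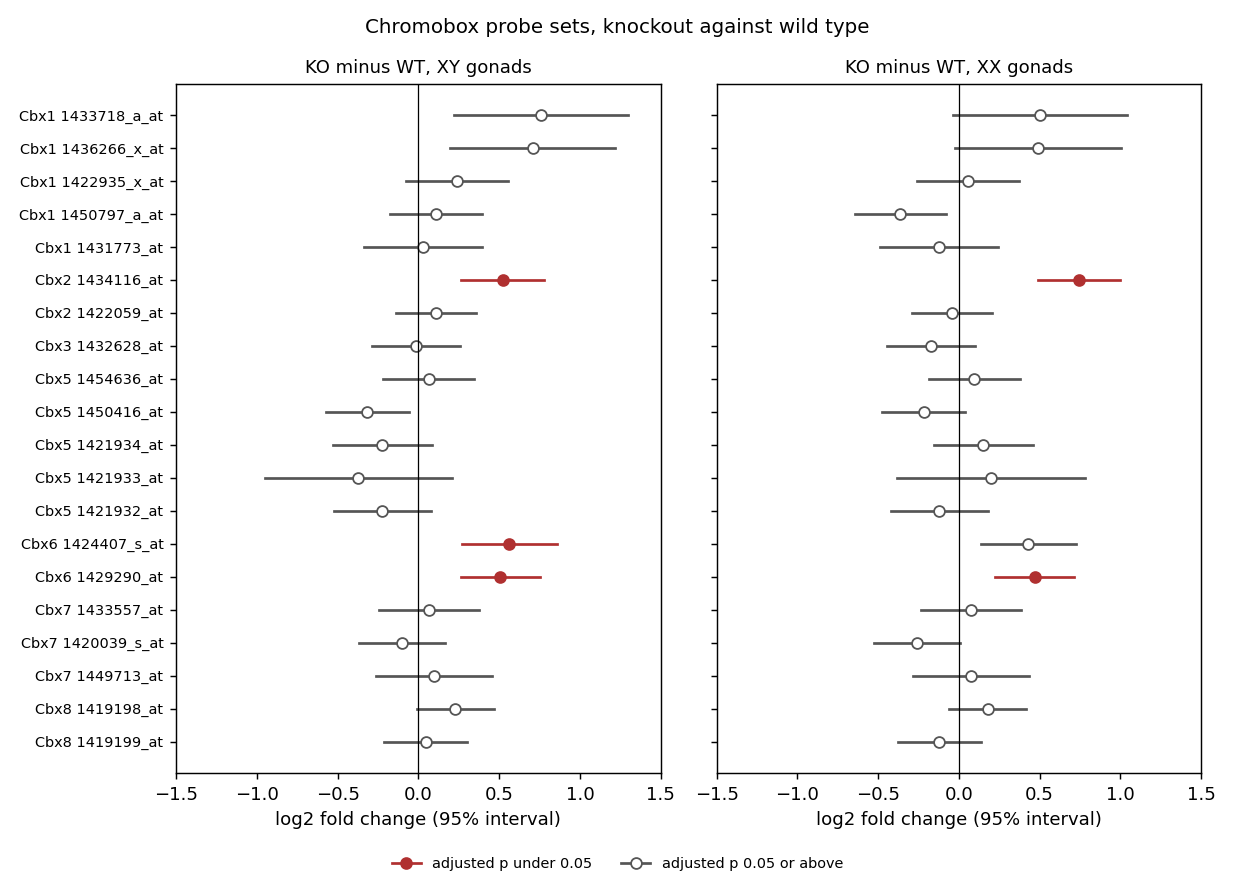
Log2 fold change of KO over WT for each of the 20 probe sets in XY (left) and XX (right) gonads, with 95% intervals from limma. Filled red points passed at an adjusted p under 0.05: 1 of 2 Cbx2 probe sets in both sexes, both Cbx6 probe sets in XY and 1 of them in XX.

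Cbx6, a Polycomb chromobox protein, rose on both of its probe sets. The brighter one, 1424407_s_at, had values of 10.277, 10.147 and 10.45 in KO XY, against 9.627, 9.827 and 9.729 in WT XY. In XX it gave 10.447, 10.342 and 10.072 in KO, against 9.63, 10.022 and 9.916 in WT. Every KO array lay above every WT array, within each sex and over both. The suffix _s marks a probe set whose probes are shared by several transcripts or genes, although the annotation names only Cbx6 for it.

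Its log2 fold change was 0.56 ± 0.14 in XY (1.48-fold, adjusted p = 0.0184), 0.43 ± 0.14 in XX (1.35-fold, adjusted p = 0.0656, so no call) and 0.50 ± 0.10 in the average (1.41-fold, adjusted p = 0.00232). The other probe set, 1429290_at, had values of 7.837, 7.596 and 7.621 in KO XY, against 7.073, 7.268 and 7.193 in WT XY. In XX it gave 7.88, 7.714 and 7.64 in KO, against 7.248, 7.187 and 7.39 in WT. The groups were again apart in both sexes, and the probe set rose in XY (0.51 ± 0.11, adjusted p = 0.0119), in XX (0.47 ± 0.11, adjusted p = 0.0184) and in the average (0.49 ± 0.08, adjusted p = 0.000690).

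In the average both Cbx6 probe sets passed in every alternative run for them, 22 and 21 settings. Within one sex the calls were closer to the threshold. In XY that of 1424407_s_at ended when KO XY replicate 1 or 3 or WT XY replicate 1 or 3 was left out (adjusted p from 0.0517 to 0.0858), and that of 1429290_at ended after dropping KO XY replicate 1 (0.0614) or WT XY replicate 1 (0.0624). In XX that of 1429290_at ended without KO XX replicate 1 (0.0744) or WT XX replicate 2 (0.0637), while 1424407_s_at passed without KO XX replicate 3 (0.0410). Over all 45037 probe sets, 4.47% had all 6 KO arrays above all 6 WT arrays, as did 3 of the 20 here, the brighter Cbx2 probe set and both of Cbx6.

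The other Polycomb members gave no call in any of the comparisons. For Cbx8, a PRC1 subunit encoded next to Cbx2, the brighter probe set 1419198_at had values of 7.212, 6.985 and 7.198 in KO XY, against 6.857, 6.909 and 6.944 in WT XY. In XX the values were 6.806, 6.98 and 7.038 in KO, against 6.841, 6.812 and 6.631 in WT. The KO XY arrays lay above the WT XY arrays, and the XX groups overlapped. The log2 fold changes of 0.23 ± 0.11 in XY (adjusted p = 0.259) and 0.18 ± 0.11 in XX (adjusted p = 0.366) left intervals of 0.993 to 1.38-fold and 0.961 to 1.34-fold. The average was 0.20 ± 0.08 (adjusted p = 0.0939) and passed under 1 alternative, array weights (adjusted p = 0.0430). The dimmer Cbx8 probe set, 1419199_at, ranged from 4.625 to 5.054 over all arrays, with 0.05 ± 0.12 in XY and -0.12 ± 0.12 in XX.

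Cbx7, the Polycomb chromobox protein that prevails in mouse embryonic stem cells, was read by 3 probe sets. On the brightest, 1433557_at, KO XY arrays had 5.676, 5.852 and 5.22, against 5.528, 5.631 and 5.389 in WT XY. KO XX arrays had 5.685, 5.637 and 5.727, against 5.499, 5.7 and 5.629 in WT XX. All groups overlapped, with log2 fold changes of 0.07 ± 0.14 in XY (adjusted p = 0.869, interval 0.845 to 1.3-fold) and 0.07 ± 0.14 in XX (adjusted p = 0.808, interval 0.849 to 1.3-fold). The remaining probe sets, 1420039_s_at (4.087 to 4.723) and 1449713_at (3.657 to 4.291), had log2 fold changes between -0.26 and 0.10 in the separate sexes, and none passed. Over all Cbx7 and Cbx8 probe sets, the intervals in the separate sexes reached down to 0.696-fold and up to 1.38-fold. These intervals describe the array values and do not show equal levels. All 3 Cbx7 probe sets and Cbx8 1419199_at stayed below the lowest array median of 5.875 in every array. Whether values that low follow the full change in RNA was not tested, so the intervals do not bound that change.

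Among the HP1 genes, the probe sets of Cbx1 went apart. Its brightest, 1433718_a_at, had values of 11.689, 12.022 and 11.709 in KO XY, against 10.838, 11.23 and 11.073 in WT XY. In XX it gave 11.843, 12.052 and 11.944 in KO, against 10.633, 11.821 and 11.873 in WT. WT XX replicate 1 was thus as low as the WT XY arrays, and the other WT XX arrays were level with KO. The next, 1436266_x_at, had the same layout, with 10.61, 10.747 and 10.658 in KO XY against 9.832, 10.03 and 10.033 in WT XY, and 10.776, 10.933 and 10.901 in KO XX against 9.59, 10.637 and 10.91 in WT XX. The suffix _x marks probes that also match other sequences.

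Averaged over the sexes, 1433718_a_at rose by 0.63 ± 0.18 (adjusted p = 0.0239) and 1436266_x_at by 0.60 ± 0.17 (adjusted p = 0.0241). In XY their log2 fold changes of 0.76 ± 0.25 and 0.71 ± 0.24 did not pass (adjusted p = 0.0810 and 0.0878), although the groups were apart. Without WT XX replicate 1, whose spread enters the shared error, they passed in XY (adjusted p = 0.00138 and 0.000801), when 12.5% of all probe sets were called. In XX the log2 fold changes of 0.50 ± 0.25 and 0.49 ± 0.24 (adjusted p = 0.255 and 0.240) became 0.10 ± 0.14 and 0.10 ± 0.12 without that array (adjusted p = 0.743 and 0.707), and in the average 0.43 ± 0.10 and 0.40 ± 0.08 (adjusted p = 0.00698 and 0.00422, with 16.1% of all probe sets called). With all others kept, the average calls ended when KO XX replicate 2, KO XY replicate 2 or WT XY replicate 1 was dropped (adjusted p from 0.0537 to 0.0656). They also ended with the Gapdh covariate described below, under which both probe sets passed in XX and not in XY.

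The same array decided a comparison of the sexes. Within WT, 1433718_a_at averaged 11.047 ± 0.197 in XY and 11.442 ± 0.701 in XX, with a difference of -0.40 ± 0.25 (adjusted p = 0.663). Without WT XX replicate 1 it was -0.80 ± 0.14 (adjusted p = 0.00722), and 1436266_x_at gave -0.81 ± 0.12 (adjusted p = 0.00347). Leaving out this array raised the share of all probe sets called between the sexes in WT to 5.44%, against 0.0555% with it, so these 2 calls stood among many. With all arrays, none of the 20 chromobox probe sets passed between XY and XX in WT or in KO (0.0377% called in all), nor for the difference of the KO effect between the sexes (0.00666%). At an unadjusted p under 0.05 the counts were 1, 2 and 1. The share of all probe sets or genes at that level was not counted, here or below.

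The remaining 3 Cbx1 probe sets gave no call. The values of 1450797_a_at were 7.562, 7.651 and 7.787 in KO XY and 7.36, 7.696 and 7.616 in WT XY, and 7.103, 7.524 and 7.39 in KO XX against 7.799, 7.632 and 7.674 in WT XX. The XX groups were apart in the other direction, with a log2 fold change of -0.36 ± 0.13 (adjusted p = 0.109). The probe sets 1422935_x_at (8.275 to 8.949) and 1431773_at (6.881 to 7.695) had average log2 fold changes of 0.15 ± 0.10 and -0.05 ± 0.12, and neither passed. The interval of 1422935_x_at in the average, -0.08 to 0.37, does not exclude a rise. The estimated direction for Cbx1 therefore differed between probe sets.

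**Figure D3:**
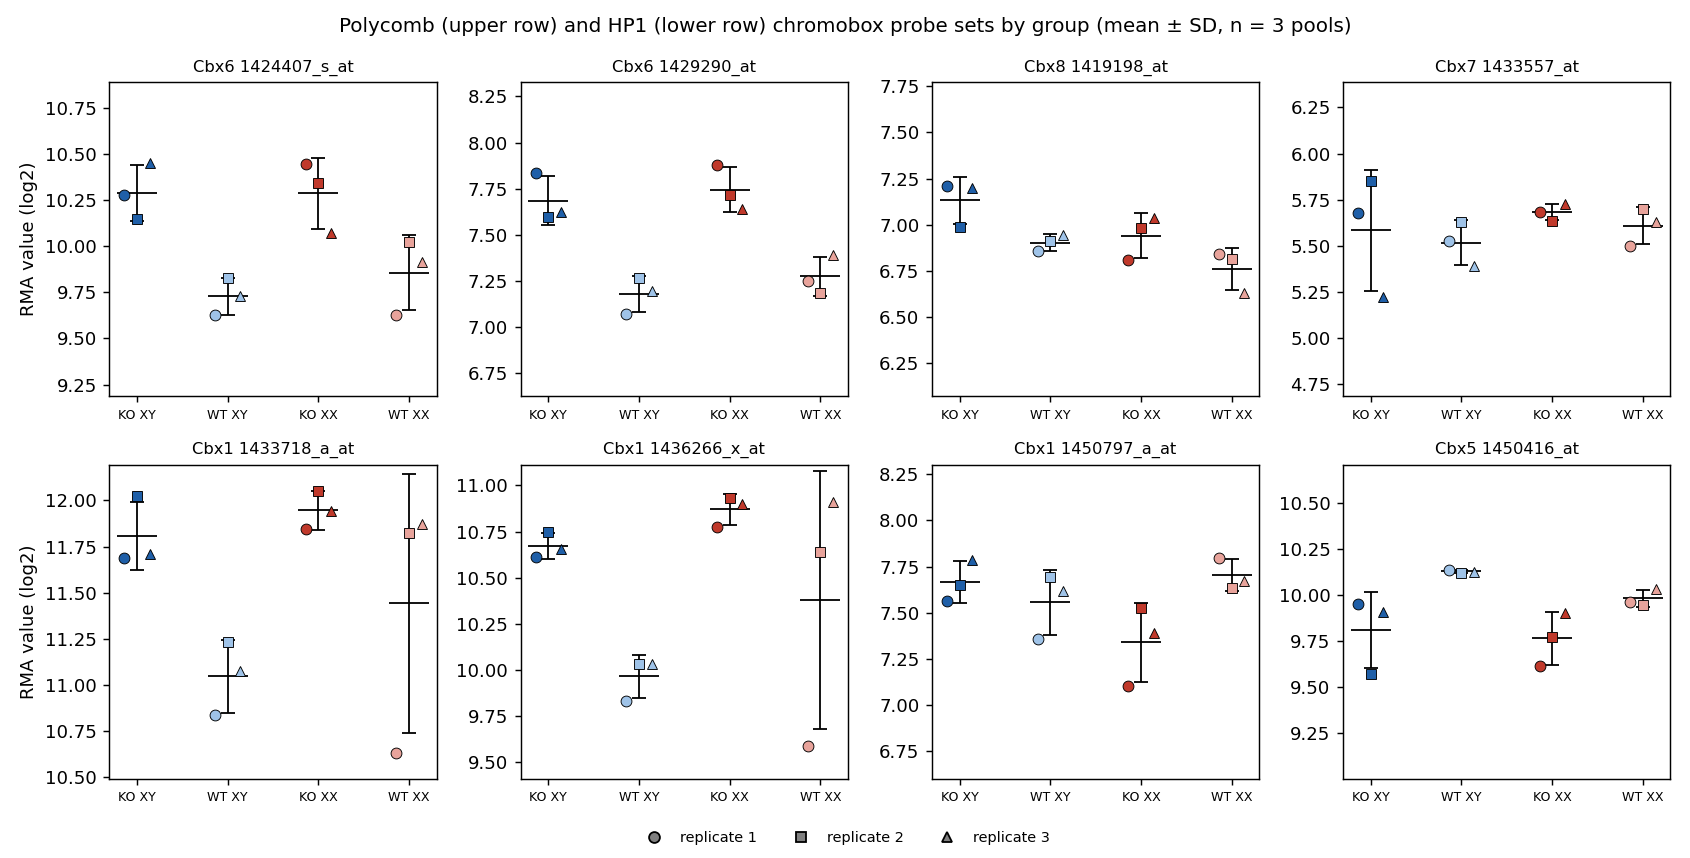
Log2 RMA values by group for 4 Polycomb (upper row) and 4 HP1 (lower row) chromobox probe sets. Points are pools marked by replicate number and bars are mean ± SD (n = 3). Each panel spans the same height in log2 units. KO lies above WT in both Cbx6 panels, Cbx7 groups overlap, and WT XX replicate 1 lies at 10.633 and 9.59 in the first 2 Cbx1 panels, near the WT XY arrays.

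Cbx5, the HP1 protein concentrated at pericentric heterochromatin, gave 1 call on its 5 probe sets. The values of 1450416_at were 9.949, 9.574 and 9.91 in KO XY, against 10.137, 10.118 and 10.127 in WT XY, and 9.618, 9.774 and 9.903 in KO XX, against 9.965, 9.946 and 10.033 in WT XX. KO lay below WT within each sex, and in the average it fell by 0.27 on the log2 scale (± 0.08, adjusted p = 0.0422). That call passed in only 8 of 21 alternatives, and it ended when any one of 9 arrays was left out (adjusted p from 0.0568 to 0.0975), among them WT XX replicate 1 (0.0584).

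The brightest Cbx5 probe set, 1454636_at, overlapped between groups (9.894 to 10.382 over all arrays) and had an average log2 fold change of 0.08 ± 0.09 (adjusted p = 0.647). For 1421934_at, 1421933_at and 1421932_at the averages were -0.04 ± 0.10, -0.09 ± 0.19 and -0.17 ± 0.10, none of them called. Cbx3, the HP1 protein also found at active genes, had values of 6.731, 6.916 and 6.81 in KO XY and 6.983, 6.654 and 6.867 in WT XY on its own probe set, 1432628_at. In XX they were 6.405, 6.797 and 6.517 in KO and 6.776, 6.645 and 6.807 in WT. The groups overlapped, with -0.02 ± 0.13 in XY (adjusted p = 0.971) and -0.17 ± 0.13 in XX (adjusted p = 0.466).

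The Gapdh 3' minus 5' control difference, a measure of RNA integrity and of the length of amplified copies, was higher in every KO XY array than in any WT XY array. It was 4.913 ± 0.119 in KO XY and 4.127 ± 0.383 in WT XY (SD, n = 3, exact permutation p = 0.1, the smallest that 3 against 3 allows), and 4.046 ± 0.216 in KO XX and 4.305 ± 0.447 in WT XX (exact permutation p = 0.4). With this difference as a covariate none of the 20 probe sets passed in XY, against 3 without it, and 2.31% of all did. At an unadjusted p under 0.05 the count was 2 with it and 6 without it, again with no share over all probe sets to set beside it. The log2 fold change of the brighter Cbx2 probe set was then 0.566 in XY (adjusted p = 0.167), and those of Cbx6 were 0.25 and 0.335 (adjusted p = 0.720 and 0.490). In XX 5 of the 20 passed with it, as did 5191 of all 45037. The averages of Cbx2 and of both Cbx6 probe sets kept their calls. For the Cbx1 probe sets 1433718_a_at and 1436266_x_at the log2 fold changes in XY were then 0.131 and 0.11 (adjusted p = 0.963 and 0.968 by limma). Both passed in XX (adjusted p = 0.0450 and 0.0416), and their average calls ended (adjusted p = 0.110 and 0.111).

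Markers of other cells in the capture also moved with genotype, in the average over sexes, where 21.9% of 18193 genes with 1 probe set each were called (12.5% higher and 9.44% lower). Of 11 measured germ cell markers 6 rose, among them the RNA helicase Ddx4 (0.62 ± 0.17) and Dazl (0.54 ± 0.16). Within single sexes 5 of the 11 rose in XX (beside 7.28% of all genes). None passed in XY by limma, beside 5.58% of all genes higher and 6% lower. In XY 2 had an unadjusted p under 0.05. Dppa3 averaged lower in KO than in WT, 7.777 against 8.101 in XY and 7.448 against 7.593 in XX. The mean log2 level of the germ cell list ranged from 8.263 to 8.558 in KO XY and 8.001 to 8.322 in WT XY, and from 8.341 to 8.549 in KO XX and 7.866 to 8.191 in WT XX. Of 8 coelomic epithelium markers 5 rose and 1 fell, with list means of 8.986 to 9.039 in KO XY against 8.276 to 8.403 in WT XY and of 8.964 to 9.237 in KO XX against 8.13 to 8.219 in WT XX. Of 10 endothelial markers 8 fell, with list means of 6.781 to 7.347 in KO XY against 7.847 to 8.012 in WT XY and 6.919 to 7.596 in KO XX against 7.634 to 7.848 in WT XX. Macrophage markers rose in 4 of 9. None of 7 erythroid or 9 proliferation markers passed by limma, with 2 and 0 at an unadjusted p under 0.05, 1 of 6 neural markers rose, and of 5 mesonephros markers 1 rose and 1 fell. The part of these shifts in the chromobox values was not tested, and in bulk samples fewer cells of a type and less RNA per cell cannot be told apart.

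The 5 genes whose values over the 12 arrays ran closest to those of the brighter Cbx2 probe set were Wls, a carrier of Wnt ligands, Bdh2, a hydroxybutyrate dehydrogenase, Sh3yl1, Sulf2, a heparan sulfate sulfatase, and Dsel, a dermatan sulfate epimerase. After each gene was centred on its own mean, the root mean square difference from Cbx2 ran from 0.0942 for Wls to 0.1085 for Dsel (log2 units), where the median over 16328 genes was 0.399. Wls had 9.638, 9.631 and 9.721 in KO XY, against 9.252, 9.472 and 9.204 in WT XY, and 9.713, 9.549 and 9.723 in KO XX, against 9.135, 8.911 and 8.977 in WT XX. As in Cbx2, all KO arrays lay above all WT arrays and WT XX arrays were lowest. Such a shared layout follows from picking genes by their closeness to Cbx2 over these arrays.

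Genes of the same complexes were read by their brightest probe set. Of 15 measured PRC1 subunits outside the chromobox family 5 rose and 1 fell in the average over sexes, beside the shares of 12.5% and 9.44% over all genes. Bmi1, the RING finger partner of Ring1 proteins in canonical PRC1, rose by 1.09 ± 0.10 (adjusted p = 2.44e-06), Scml2 by 0.61 ± 0.09 and Yaf2, a subunit of the variant complexes that lack chromobox proteins, by 0.39 ± 0.08, while Scmh1 fell by 0.55 (± 0.09, adjusted p = 0.000671). The catalytic subunits Ring1 (-0.09 ± 0.09) and Rnf2 (-0.01 ± 0.10) gave no call. The list's median log2 fold change was 0.101, beside -0.012 over all genes. In XY 2 of the 15 rose and 1 fell, beside 5.58% and 6% of all genes, and in XX 3 rose and 1 fell, beside 7.28% and 4.64%.

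Of 14 measured partners of HP1, 2 rose in the average (beside 12.5% of all genes), the chromatin remodeller Atrx (0.35 ± 0.11, adjusted p = 0.0469) and the histone H4 methyltransferase Kmt5b (0.29 ± 0.09, adjusted p = 0.0325), and none fell (beside 9.44%). In XY none of the 14 was called, beside 5.58% of all genes higher and 6% lower. In XX 2 rose and none fell, beside 7.28% and 4.64%. The corepressor Trim28 (-0.12 ± 0.10) and the lysine 9 methyltransferases Setdb1 (0.16 ± 0.09) and Suv39h2 (0.01 ± 0.11) did not pass. Among 9 other chromodomain genes the remodellers Chd1 (0.69 ± 0.17, adjusted p = 0.0116) and Chd2 (0.34 ± 0.09, adjusted p = 0.0142) rose and none fell in the average, beside the same 12.5% and 9.44%. In XY 1 of the 9 rose and none fell, and in XX none was called, beside the same shares within each sex. Suv39h2 stands on both lists.

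WT XX replicate 1 stood apart in several of these genes. Chd1 had 8.817, 9.142 and 8.849 in KO XY, against 7.938, 8.063 and 8.061 in WT XY, and 9.282, 9.1 and 9.129 in KO XX, against 7.922, 9.195 and 9.01 in WT XX. Without that array, an alternative chosen after the data were seen, the log2 fold change of Chd1 was 0.92 ± 0.12 in XY (adjusted p = 0.000140), 0.07 ± 0.13 in XX (adjusted p = 0.813) and 0.49 ± 0.09 in the average (adjusted p = 0.00136). The average call of Atrx ended (0.23 ± 0.08, adjusted p = 0.0542), as did that of the PRC1 subunit Pcgf5 (0.36 ± 0.12, adjusted p = 0.0531), and Cdyl2 gained one (0.39 ± 0.12, adjusted p = 0.0355). The counts in the average were then 4 higher and 1 lower of 15 PRC1 subunits, 1 higher of 14 HP1 partners and 3 higher of 9 other chromodomain genes, where 11.7% of all genes were called higher and 8.66% lower.

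**Figure D4:**
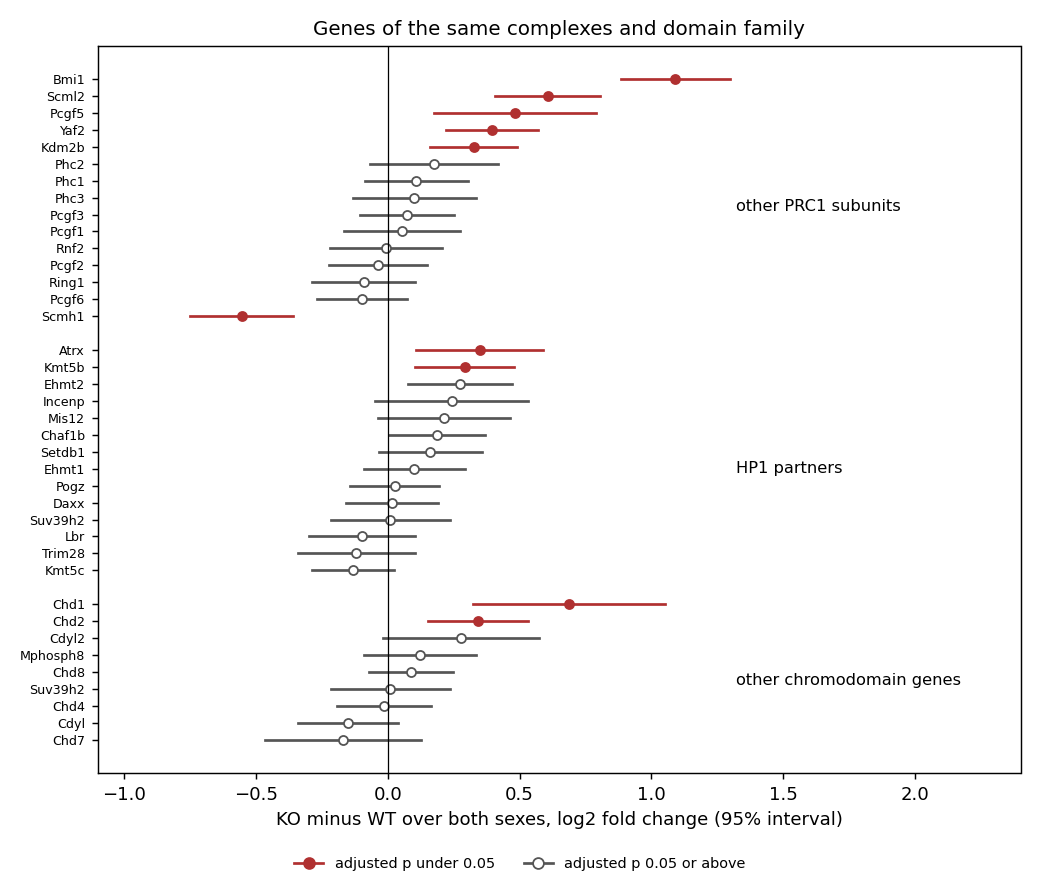
Log2 fold change of KO over WT, averaged over both sexes, for 15 PRC1 subunits, 14 HP1 partners and 9 other chromodomain genes (1 probe set each), with 95% intervals. Filled red points passed at an adjusted p under 0.05. Bmi1 lies farthest to the right at 1.09 and Scmh1 farthest to the left at -0.55.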

How the data were processed

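The authors deposited RMA values on the log2 scale. Tools named, per the submitters' processing notes, were affy, RMA and Affymetrix Expression Console, without versions. They ran from 2.374 to 15.013, with array medians from 5.875 to 5.944, and were used as given. Per the labels' protocols, 15 ng of total RNA per pool went through an amplification of 2 cycles. Precision is limited by having 3 arrays a group, and p-values measure the spread between pools.

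From these, limma 3.58.1 in R 4.3.3 (lmFit, eBayes) was fitted to all 45037 probe sets other than the 64 controls, with 4 group means, 8 residual degrees of freedom and 6 contrasts, two-sided, with Benjamini-Hochberg adjustment over all probe sets and a threshold of 0.05. Lists used the brightest probe set of each of 18193 genes, with symbols matched by gene identifier. Named were all member probe sets, the 5 genes most like Cbx2 and up to 4 per list by adjusted p, beside others picked after their values were seen. The members and lists were chosen with earlier results of these data known. The steps were tested on simulated data. Alternatives covered normalization, filter, probe set choice, variance prior, array weights, replicate block, groups, covariate, threshold and single arrays left out.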

Additional observations from a re-analysis of the deposited data

How the results depend on the processing

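Log2 fold changes were tallied for the brighter Cbx2 probe set, and for other chromobox probe sets only in contrasts where they passed in at least 1 setting. Of these 490 recomputed values, none changed sign, 432 kept their side of the threshold, 41 lost the call and 17 gained one. This choice leaves out most small changes, where signs did change. Examples are Cbx7 1433557_at in XY (-0.068 to 0.248) and Cbx1 1433718_a_at in the difference of the KO effect (-0.58 to 0.661). Of 139 recomputed counts of calls, 117 stayed within 1.5 times the reported count. Many of these were 0 beside a reported 0, in the comparisons of the sexes and the difference of the KO effect. They say little about stability. With single arrays left out, the count of KO against WT stayed within 1.5 times in 7 of 12 fits in XY, 10 of 12 in XX and 9 of 12 in the average. For the brighter Cbx2 probe set the XY call (0.522) was lost with the Gapdh covariate (0.566, adjusted p = 0.167) and at a threshold of 0.01, and single arrays left out gave 0.458 to 0.58, with 0.675 to 0.828 in XX and 0.598 to 0.675 in the average. Of the 20 chromobox probe sets 3 were called in XY in the fit reported, and the count was 5 with array weights, 5 with only the groups of the contrast, 0 with the Gapdh covariate, 0 at 0.01 and 1 to 5 with single arrays left out. In XX the reported count of 2 became 1 with only the groups of the contrast, 5 with the covariate, 1 at 0.01 and 1 to 3 with single arrays left out. In the average the reported count of 6 became 3 with 1 probe set per gene (7 tested), 3 with the covariate, 3 at 0.01 and 3 to 6 with single arrays left out. Between the sexes in WT the count was 0 to 2. These counts do not say which probe sets were called. Fewer features or a stricter threshold account by construction for the lower counts there, and for the rest the cause was not tested. Deviations of same-numbered arrays of different groups had correlations from -0.178 to 0.224. Arrays of different numbers were not set beside them, so whether the numbers pair arrays was not tested. With the replicate block, 4, 2 and 6 probe sets passed in XY, XX and the average.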

Other observations

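Another 4 probe sets are annotated to both Cbx3 and the pseudogene Cbx3-ps5, so their signal cannot be given to either. On the brightest, 1448504_a_at, KO XY arrays had 13.813, 13.825 and 13.791, against 13.627, 13.697 and 13.705 in WT XY, and KO XX arrays had 13.868, 14.045 and 13.882, against 13.268, 13.789 and 13.844 in WT XX. On 1416884_at the values were 12, 12.435 and 12.216 in KO XY against 11.777, 11.921 and 11.566 in WT XY, and 12.474, 12.56 and 12.402 in KO XX against 11.488, 12.333 and 12.447 in WT XX. As on the 2 brightest Cbx1 probe sets, KO lay above WT in XY and WT XX replicate 1 was the lowest array. Averaged over the sexes the 4 log2 fold changes ran from 0.11 to 0.43, and none passed by limma (adjusted p from 0.0596 to 0.477).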
